A study of Mus musculus with 16 samples.

Results

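The 8 genes described here encode the subunits of TRiC, also called CCT, the chaperonin of the eukaryotic cytosol. They were chosen by name (Tcp1, Cct2, Cct3, Cct4, Cct5, Cct6a, Cct7 and Cct8) among the genes of an oligonucleotide array, where 25 of 45037 probe sets carried one of these symbols and 23 of the 31953 probe sets tested did. All 8 genes were among the 15274 genes tested, and each of the probe sets read for them was at or above the 40th percentile of its array on every array of every group. RNA came from mouse two-cell embryos with B6 ooplasm and a B6 paternal pronucleus. The maternal pronucleus was B6 in BBB embryos and C3H in BCB embryos. Each kind was measured untreated and after treatment with α-amanitin (α-amantin in the submitters' spelling), which blocks RNA polymerase II. Each of the 4 groups held 4 arrays. How many embryos an array stands for and where replicates came from were not given in the sources used here, so p-values measure the spread between these samples, which may be technical.

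CCT is built from a pair of stacked rings, each made of the 8 different subunits in a fixed order, and it encloses newly made proteins in a central chamber while ATP is hydrolysed. Actins and tubulins depend on it, as do many proteins with WD40 repeats, among them the cell cycle regulator Cdc20. In the ring the order is Tcp1, Cct3, Cct6a, Cct8, Cct7, Cct5, Cct2 and Cct4. Tcp1, Cct2, Cct4 and Cct5 are known from yeast as the subunits that bind ATP most tightly, and Cct3, Cct6a, Cct7 and Cct8 as those that bind it less tightly. A mouse embryo starts life with RNA laid down by the oocyte and turns on its own genome mainly at the two-cell stage, so a transcript in an untreated embryo can be of either origin.

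Promoters of 4 subunits are shown because the genes behave differently below. Cct6a had the largest fall with amanitin, Tcp1 and Cct8 also fell, and Cct7 did not fall at the scale of the deposited values. Each window runs from 250 bases before to 50 bases after a RefSeq start site (GRCm38.p6), written 5′ to 3′ on the strand of the gene. Capitals mark the motifs found among those searched.
Cct6a, chr5:129787106-129787405, plus strand: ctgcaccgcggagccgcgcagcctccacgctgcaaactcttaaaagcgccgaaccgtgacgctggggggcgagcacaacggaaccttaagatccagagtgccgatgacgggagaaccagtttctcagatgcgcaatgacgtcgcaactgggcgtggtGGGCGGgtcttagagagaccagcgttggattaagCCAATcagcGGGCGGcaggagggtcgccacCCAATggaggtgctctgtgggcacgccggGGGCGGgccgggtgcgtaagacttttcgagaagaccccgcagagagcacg
Tcp1, chr17:12916079-12916378, plus strand: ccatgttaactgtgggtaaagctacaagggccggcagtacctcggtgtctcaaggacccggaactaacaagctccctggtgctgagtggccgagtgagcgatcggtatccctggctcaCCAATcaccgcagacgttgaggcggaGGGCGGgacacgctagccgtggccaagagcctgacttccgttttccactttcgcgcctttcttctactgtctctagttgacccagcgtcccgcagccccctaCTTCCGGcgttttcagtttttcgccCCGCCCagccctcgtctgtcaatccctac
Cct8, chr16:87495820-87496119, minus strand: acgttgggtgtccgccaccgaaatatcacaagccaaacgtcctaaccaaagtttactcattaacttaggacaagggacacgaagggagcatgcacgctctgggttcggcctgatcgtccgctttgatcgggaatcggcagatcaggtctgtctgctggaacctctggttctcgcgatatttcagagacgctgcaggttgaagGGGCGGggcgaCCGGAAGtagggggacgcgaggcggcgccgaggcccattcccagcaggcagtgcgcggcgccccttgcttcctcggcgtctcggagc
Cct7, chr6:85451255-85451554, plus strand: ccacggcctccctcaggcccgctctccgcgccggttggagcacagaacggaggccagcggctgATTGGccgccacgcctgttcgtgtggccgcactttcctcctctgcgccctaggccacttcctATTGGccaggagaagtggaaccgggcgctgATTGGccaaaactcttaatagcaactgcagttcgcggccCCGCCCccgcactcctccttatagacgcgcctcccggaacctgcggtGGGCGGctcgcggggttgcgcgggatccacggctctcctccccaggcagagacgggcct

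RefSeq windows were found for 7 of the 8 subunits, with Cct2 and Cct5 having more than 1, and Cct4 was not matched. The GC box (GGGCGG, both strands) was in at least 1 window of all 7, as it was for 38.2% of the 27025 genes with windows (35.7% of all 32851 windows). CCAAT was in those of Tcp1, Cct3, Cct6a and Cct7 (41.1% of genes, 37.4% of windows), and the ETS core CCGGAAG in those of Tcp1, Cct2 and Cct8 (9.93% and 8.86%). The palindromic NRF1 motif was in 1 window of Cct5 (1.07% and 0.971%). No member window held TATAAA (15.7% of genes, 13.6% of windows), the E-box CACGTG (8.09% and 7.15%), the YY1 motif AAGATGGCG (1.64% and 1.4%) or a heat shock element of 3 alternating units (0.662% and 0.603%). Cct7 and Cct6a both held CCAAT, 3 and 2 times, and both held the GC box, 2 and 3 times. These matches are descriptions of the letters in each window.

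Untreated and treated arrays differed widely, with correlations of 0.764 to 0.815 between them across probe sets (which are not independent) and 0.976 to 0.990 within a group. The mean intensity per array was 207 to 215 untreated and 239 to 248 with amanitin. Probe sets for 2 kinds of added control RNA moved with the treatment. As log2 differences, treated minus untreated, the hybridization controls were at 0.55 (BBB) and 0.79 (BCB), and the poly-A controls at 1.71 and 1.73. Changes below are therefore relative to each array's own scale. Of the markers of two-cell embryos, 7 were on the array by symbol, and all 7 fell with amanitin in both kinds. Their summed intensity was 14133 to 16166 in BBB, 13722 to 14998 in BCB, and 703 to 1223 in the treated groups. Of 14 cumulus and granulosa cell markers 13 were on the array, with a summed intensity of 2162 to 2557 in BBB, 2432 to 2826 in BCB, 509.7 to 619 in BBB with amanitin and 545 to 613 in BCB with amanitin. The fall of the sum was that of a single gene, Amhr2, with 2086 ± 211 in BBB (SD, n = 4) and 58.9 with amanitin. Among the 9 tested genes of the list, 1 was called lower and 6 higher in BBB (median 0.59), where 33.1% and 37.1% of all genes were. In BCB the counts were 1 and 5, against 31.9% and 39.9% of all genes. Cyp11a1 read 62.6 in BBB and 133.9 with amanitin, and Kitl 85.6 and 162.7. Fshr and Ptx3, also called higher in BBB, averaged 3.7 and 3.3 there, under the 40th percentile of those arrays (11.2 to 13). Treated arrays may alone have carried them through the filter, so their calls, and the count of 6 that includes them, are not read as a result. Cyp19a1 was not analysed here. The part of these cells in the results was not tested. Fewer cells and less RNA per cell cannot be told apart in such samples. Of the oocyte markers, 8 of 9 were called higher with amanitin, with sums of 12254 to 14690 in BBB and 25203 to 26884 in BBB with amanitin. The sperm-carried markers summed to 48.2 to 107.5 in BBB and 86.5 to 117 in BBB with amanitin.

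The comparison of treated and untreated BBB embryos asks how much of each subunit's RNA depends on transcription by the embryo. In all, 7 of the 8 subunits fell with amanitin, and on every one of them all 4 treated arrays lay below all 4 untreated arrays. The falls ran from 1.88-fold for Cct2 to 33.2-fold for Cct6a in mean intensity. Cct7 was not called in either direction (37.1% of all genes were called higher, and 33.9% had treated arrays all above untreated ones). The test was limma on log2(intensity + 16), with Benjamini-Hochberg adjustment over all probe sets tested, and a gene was read from its probe set with the highest mean. Of all genes, 33.1% were called lower and 30.7% had treated arrays all below untreated ones, so falling is common here. The size was less so: 5 of the 8 subunits (Tcp1, Cct3, Cct4, Cct6a and Cct8) were at least 8-fold lower on the log2(intensity + 16) scale, against 4.85% of all genes. The median log2 change was −3.32 over the 8 subunits and 0.11 over all genes. That count rests on the choice of probe sets and on a value near the threshold: with the mean of a gene's tested probe sets it was 3 in BBB (Tcp1, Cct6a and Cct8), with Cct3 at −2.51 and Cct4 at −1.97, and Tcp1, at −3.02, was at −2.80 with a pseudocount of 64. Such a mean also counts dim probe sets, among them 1439679_at of Cct3 and 1415868_at of Cct4, which averaged 10.8 and 2.8 in untreated BBB. In BCB embryos the same 7 were lower (31.9% of all genes, with 29.7% not overlapping), and 3 of the 8 (Cct4, Cct6a and Cct8) were at least 8-fold lower, against 4.71%. That count was 2 with the mean of probe sets or a pseudocount of 64, 5 with quantile normalization or scaled to the hybridization controls, and 6 with the poly-A controls as the scale. Over the subunits the median was −2.93, and over all genes it was 0.17.

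**Figure D1:**
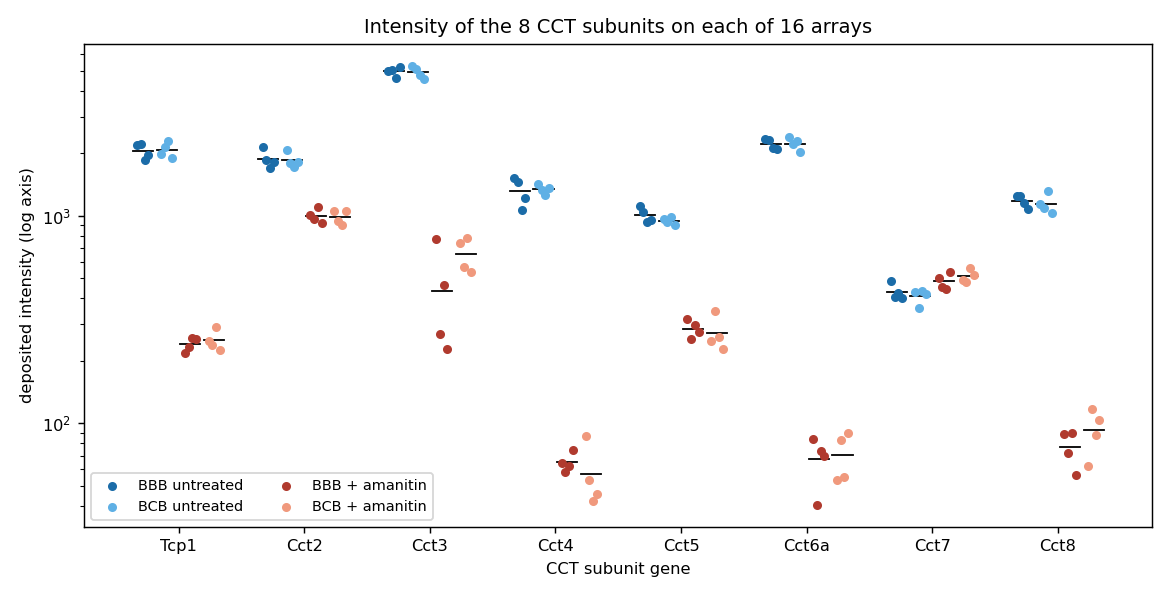
Deposited intensity (log axis) of the probe set read for each subunit on each of the 16 arrays; each point is 1 array, grouped by subunit and coloured by group, and black bars are group means (n = 4). Untreated points lie above treated points in 7 subunits and Cct7 is level or slightly higher with amanitin; heights are not comparable between subunits, since probes differ.

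Among the subunits that bind ATP most tightly, Tcp1, which gave the complex its older name, read 2196, 2231, 1863 and 1959 on BBB arrays 1 to 4 and 217, 232, 258 and 254 on the treated ones. On the BCB arrays it read 1995, 2140, 2305 and 1891 untreated and 250, 239, 293 and 226 with amanitin. Untreated and treated arrays were far apart in both kinds, and the treated mean was 11.7% of the untreated mean in BBB and 12.1% in BCB. The log2 change was −3.02 (SE 0.10, limma adjusted p 1.61e-17) in BBB and −2.97 (SE 0.10, adjusted p 1.98e-17) in BCB.

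Cct4 read 1520, 1449, 1063 and 1213 on the BBB arrays and 64.4, 58.5, 62.3 and 74.4 with amanitin. In BCB it read 1428, 1335, 1255 and 1366 untreated, and 87.1, 53.1, 42.1 and 45.5 with amanitin. BBB array 3 was the lowest untreated array, and it was still far above every treated one. The log2 changes were −4.03 (SE 0.15, adjusted p 1.12e-16) and −4.26 (SE 0.15, adjusted p 3.82e-17), which left 4.95% and 4.23% of the untreated mean.

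Cct5 and Cct2 fell less. Cct5 read 1112, 1044, 935 and 958 on the BBB arrays and 318, 254, 297 and 274 with amanitin, and in BCB 962, 929, 984 and 908 untreated and 249.6, 347, 259.6 and 229 with amanitin. The treated arrays did not overlap the untreated ones, and 28.2% (BBB) and 28.7% (BCB) of the mean was left, with log2 changes of −1.77 and −1.76 (SE 0.11 in both, adjusted p 1.75e-12 and 2.06e-12). Cct2 read 2145, 1857, 1705 and 1824 in BBB and 1005, 969, 1106 and 922 with amanitin. In BCB it read 2068, 1792, 1728 and 1808 untreated and 1060, 948, 908 and 1054 with amanitin. At the scale of the deposited values it kept 53.1% and 53.7% of its untreated mean, the mildest of the falls. The changes were −0.90 and −0.89 (SE 0.09 in both, limma adjusted p 4.4e-09 and 5.76e-09). Among all genes, 23.4% had a lower log2 change than Cct2 in BBB, whereas 0.517% had a lower one than Cct6a.

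The subunits that bind ATP less tightly held both the largest fall and the exception. Cct6a read 2357, 2320, 2129 and 2091 on the BBB arrays and 84.1, 40.5, 73.5 and 69.9 with amanitin. In BCB it read 2389, 2208, 2291 and 2034 untreated and 53.2, 82.8, 55.4 and 89.9 with amanitin. Only 3.01% and 3.15% of the untreated mean was left, with log2 changes of −4.78 and −4.72 (SE 0.15 in both, adjusted p 9.14e-18 and 1.02e-17). Its fall ranked 80th from the lowest of 15274 genes in BBB and 93rd in BCB. On the treated arrays its probe set still lay at the 71st to 72nd percentile of its array on average. Since probes differ, a rank does not show how much of this signal was Cct6a RNA, and that was not tested.

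Cct8 read 1249, 1243, 1150 and 1075 on the BBB arrays and 89.2, 72.1, 89.4 and 56.2 with amanitin, and in BCB 1143, 1089, 1312 and 1036 untreated and 62.1, 117, 88.3 and 103.5 with amanitin. It fell to 6.51% and 8.09% of its untreated mean, with changes of −3.70 and −3.44 (SE 0.15 in both, adjusted p 3.83e-16 and 1.43e-15). The treated and untreated arrays did not overlap in either kind.

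Cct3 read 4973, 5027, 4617 and 5242 on the BBB arrays and 769, 271, 467 and 227 with amanitin. In BCB it read 5276, 5081, 4766 and 4582 untreated and 744, 566, 783 and 536 with amanitin. Its untreated arrays were close together, and its treated BBB arrays were not: the highest was 3.38 times the lowest, with arrays 1 and 3 high and arrays 2 and 4 low. The SD of its log2 values in that group was 0.77, exceeded by 0.602% of genes, while in untreated BBB it was 0.08, exceeded by 90% of genes. The next brightest 2 probe sets of Cct3 showed the same split, 280 and 258 against 54.4 and 61.8 for 1459987_s_at, and 409 and 299.8 against 202 and 186 for 1416024_x_at. In treated BCB, arrays 1 and 3 were also above arrays 2 and 4 at each of these probe sets. There 1459987_s_at read 298 and 348 against 154 and 145.5, and the probe set read for the gene spread 1.46-fold. This shared order was not tested. The SDs of the other 7 subunits in treated BBB were 0.11 to 0.36. The log2 change of Cct3 was −3.62 (SE 0.22, adjusted p 7e-13) in BBB and −2.89 (SE 0.22, adjusted p 4.06e-11) in BCB, with 8.73% and 13.3% of the mean left.

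Cct7 read 485, 405, 426 and 401 on the BBB arrays and 504, 452, 444 and 537 with amanitin, where the groups overlapped, and the change of 0.17 (SE 0.10, 95% interval −0.05 to 0.38) did not pass (adjusted p 0.158). In BCB it read 428, 361, 434 and 420 untreated and 493, 478, 563 and 516 with amanitin. All 4 treated arrays lay above the untreated ones there, as in 35.6% of all genes, and the rise of 0.31 (SE 0.10, adjusted p 0.0115) passed, as 39.9% of all genes did in that direction. The call ended without BCB array 2 (0.25, adjusted p 0.0514). The change of Cct7 did not differ between the kinds beyond its error (interaction 0.14, 95% interval −0.16 to 0.44, adjusted p 0.868).

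The direction of Cct7 depended on the scale, and that of the other 7 subunits did not. Scaled to the hybridization controls, Cct7 was at −0.38 in BBB and −0.48 in BCB, and scaled to the poly-A controls at −1.55 and −1.42, all called lower. The median of all genes moved with it, to −0.43 and −0.62 with the hybridization controls and −1.60 and −1.56 with the poly-A controls. With quantile normalization it was at 0.35 in BBB, called higher (adjusted p 0.00436), and centred on array medians at 0.27 (adjusted p 0.0359). The other 7 subunits were called lower in both kinds under every one of these scalings, but the size of their falls moved with the scale. Cct2 was at −1.45 (BBB) and −1.68 (BCB) with the hybridization controls, and at −2.61 and −2.62 with the poly-A controls. The percentages of the untreated mean left, given above, hold for the deposited values alone.

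**Figure D2:**
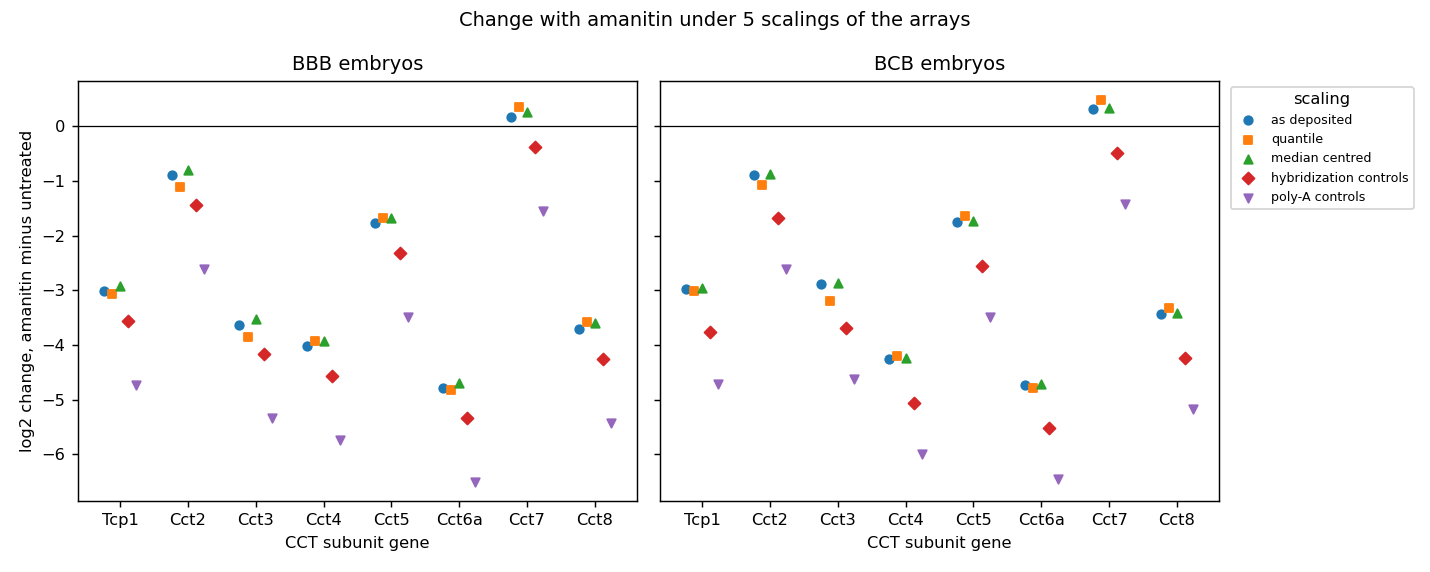
Log2 change with amanitin (vertical axis) of each subunit in BBB (left) and BCB (right) embryos under 5 scalings of the arrays, 1 symbol per scaling. The poly-A controls put all 8 subunits below 0, Cct7 at −1.55 and −1.42, and Cct7 is the highest of the 8 under each of the 5 scalings.

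Several subunits were measured by more than 1 probe set, and these did not all agree in direction. The 3 probe sets of Cct2 gave −0.89 to −1.05 in BBB and those of Cct6a −4.78 and −3.74. Both of Cct7 were at 0.17 and 0.19 in BBB and 0.31 and 0.34 in BCB. For Cct3, 5 of the 6 tested probe sets fell, from −1.27 to −4.47 in BBB, and the sixth, 1439679_at, read 10.8 in BBB and did not pass (0.19, adjusted p 0.339). For Cct4, 5 of 7 fell, from −1.25 to −4.03. Of the remaining Cct4 probe sets, 1430034_at was at or above the 40th percentile on all 16 arrays and went up in BBB, where it read 51, 55.3, 47.5 and 50.2 untreated and 65.3, 77.9, 87.6 and 84.8 with amanitin (0.50, adjusted p 0.00181). It also rose in BCB (0.37, adjusted p 0.0159). The other, 1415868_at, averaged 2.8 in BBB and 13 with amanitin and was below the 40th percentile on every untreated array; it entered the test through 4 treated arrays alone, so its difference is given without a test. With the mean of its tested probe sets in place of the brightest, the change of Cct4 was −1.97 in BBB and −2.22 in BCB, and that of Cct3 −2.51 and −2.22. Of genes with at least 2 tested probe sets, 12.3% held calls in opposite directions in BBB. Probe sets with the ending _x_at may bind RNA of similar sequence from elsewhere, and those ending in _s_at may bind more than 1 transcript. In all, 18 of the 23 tested probe sets were called lower in each kind (31.9% of all in BBB, 30.3% in BCB), and, leaving out 1415868_at, 1 in BBB and 3 in BCB were called higher (34.3% and 37.6% of all probe sets). The 2 that were not tested, 1451915_at of Cct3 and 1436973_at of Cct8, averaged 0.68 to 5.1 in every group.

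**Figure D3:**
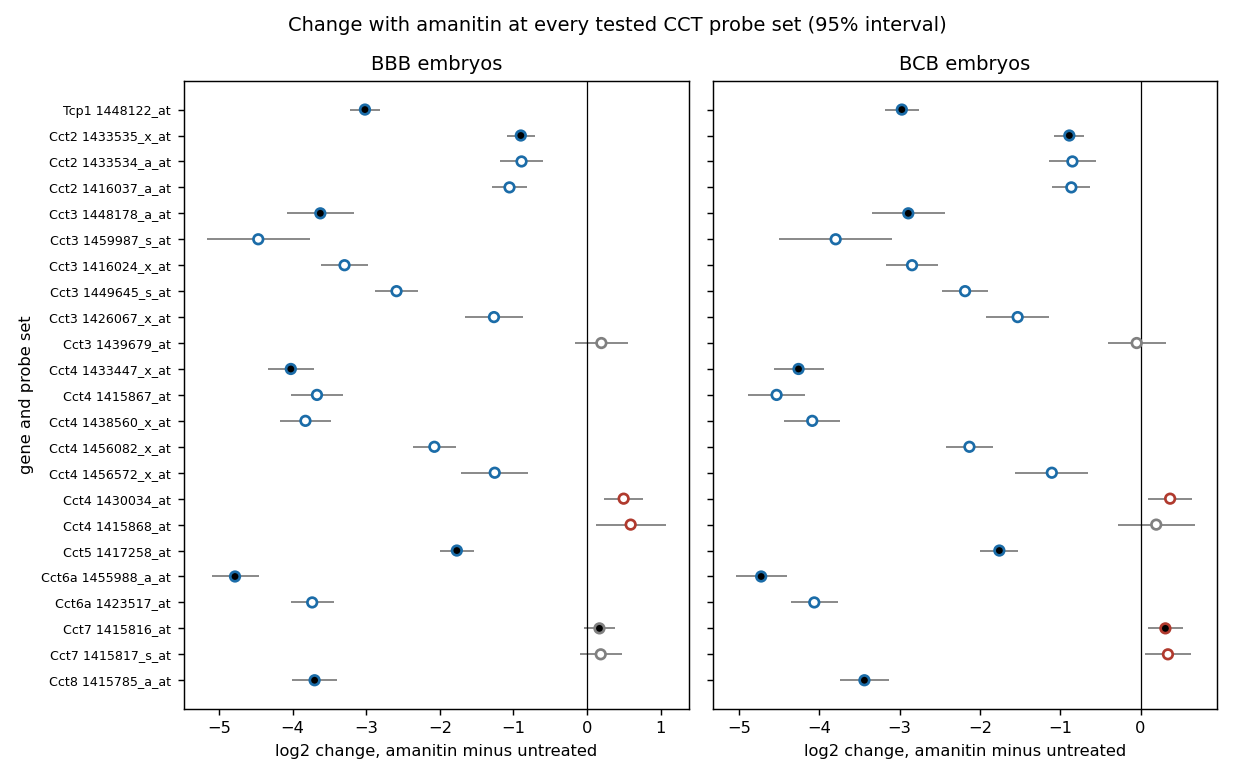
Log2 change with amanitin (horizontal axis, with 95% intervals from limma) at all 23 tested probe sets of the 8 subunits, in BBB (left) and BCB (right). Filled points are the probe sets read for a gene, and outlines mark calls (blue lower, red higher, grey not called); 18 are lower in each kind, and Cct7, 1439679_at of Cct3 and 1430034_at and 1415868_at of Cct4 lie near or above 0, the last of them having entered the test through treated arrays alone.

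The strain of the maternal pronucleus was compared next, to ask whether a C3H genome in B6 ooplasm changes the subunits. In untreated embryos none of the 8 differed between BCB and BBB (0.655% of all genes were called by limma), with log2 differences of −0.09 to 0.05 and 95% intervals within −0.47 and 0.45. None had an unadjusted p under 0.05, and the arrays overlapped in all 8 (3.57% of all genes had BCB arrays all below the BBB arrays and 2.86% all above). The untreated means were 2062 ± 179 and 2083 ± 180 (SD, n = 4) for Tcp1, 2224 ± 134 and 2230 ± 151 for Cct6a, and 4965 ± 259 and 4926 ± 311 for Cct3, in BBB and BCB. A p that misses the threshold does not show that the levels are the same, and the intervals give the differences these arrays leave possible.

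With amanitin, none of the 8 passed either (0.0786% of all genes were called), and the arrays of both kinds overlapped in all 8 (1.65% and 2.01% of all genes did not, in the same order). Without Cct3 the differences were −0.18 to 0.22, with intervals from −0.50 to 0.53. Cct3 was higher in BCB by 0.72 (SE 0.22, interval 0.26 to 1.18), with an unadjusted p of 0.00349 in limma and an adjusted p of 0.228. Its BCB arrays (536 to 783) lay within or above the range of the BBB arrays (227 to 769). The value turned on single BBB arrays: without treated BBB array 1 it was 1.04 and passed (adjusted p 0.0213), and without treated BBB array 4 it was 0.48 (adjusted p 0.389). Among the other probe sets, 1415867_at of Cct4 was lower on all treated BCB arrays than on all treated BBB arrays (−0.71, adjusted p 0.117), and 1449645_s_at of Cct3 was higher on all of them (0.29, adjusted p 0.46). Neither passed, and the brighter Cct4 probe set, 1433447_x_at, overlapped (−0.18). Of all genes, 1.65% had BCB arrays all below and 2.01% all above. The share of all probe sets that separate in this way was not counted, so these separations are not read as a result. The amanitin effect itself, BCB minus BBB, passed for none of the 8 (0.255% of all genes), and was −0.23 for Cct4, 0.26 for Cct8 and 0.73 for Cct3 (adjusted p 0.506). Without treated BBB array 1 the interaction of Cct3 was 1.05, with an adjusted p of 0.0491.

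**Figure D4:**
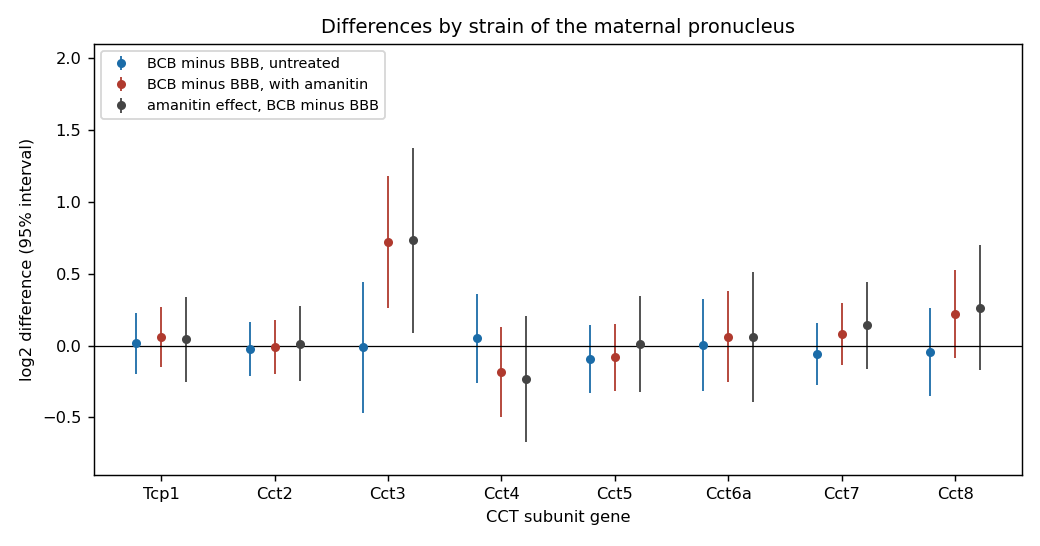
Log2 differences (vertical axis, 95% intervals from limma, n = 4 arrays per group) of the 8 subunits by strain of the maternal pronucleus: BCB minus BBB untreated (blue), with amanitin (red), and the difference of the amanitin effects (grey). All intervals cover 0 except those of Cct3 with amanitin (0.26 to 1.18) and in the interaction (0.09 to 1.38), neither of which passed after adjustment.

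Genes that work beside CCT moved in both directions with amanitin, as all genes did. Among all genes, 33.1% were called lower and 37.1% higher in BBB, and 31.9% and 39.9% in BCB. Under the poly-A scaling every gene of the lists below that was above 0 was below 0, except Ruvbl2. It was at 0.14 in BBB and 0.03 in BCB, not called in either, so each rise is relative to the array. Prefoldin, the complex that hands unfolded actin and tubulin to CCT, had 3 of 6 genes lower and 2 higher in BBB (median −0.16), and 2 and 2 in BCB. Vbp1 (−0.54), Pfdn6 (−0.56) and Pfdn2 (−0.41) fell in BBB, Pfdn4 (0.86) and Pfdn1 (0.74) rose, and Pfdn5 was at 0.09. The fall of Pfdn2 in BBB was not called with quantile normalization (−0.05) or with arrays centred on their medians (−0.32). In BCB Pfdn2 was at −0.34 and did not pass, and scaled to the hybridization controls Pfdn4 and Pfdn1 were at −0.05 and −0.08 there.

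The prefoldin-like complex, which works with Hsp90 in assembling large protein complexes, had 4 of 7 genes lower and 2 higher in each kind. Pdrg1 had 1813 ± 151 untreated and 121 ± 14.0 with amanitin in BBB (−3.74; −3.56 in BCB), and Uxt (−2.39), Rpap3 (−1.16) and Ruvbl1 (−2.81) also fell. Ruvbl2, the ATPase that pairs with Ruvbl1 in one ring, rose from 248 ± 21.4 to 936 ± 103 (1.85; 1.76 in BCB), and Uri1, the scaffold of the complex, from 1135 ± 165 to 3209 ± 245 (1.49; 1.45 in BCB). Pih1d1 was at −0.51 and did not pass. Ruvbl1 and Ruvbl2 thus went in opposite directions within one complex at the scale of the deposited values. With the poly-A controls as the scale, Ruvbl1 was still called lower. Ruvbl2 was then at 0.14 in BBB and 0.03 in BCB, not called in either.

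Of the genes listed as CCT cofactors, 3 of 4 tested fell in both kinds, or 2 of 3 without Txnl4a, a protein of the spliceosome. Pdcl, a phosducin-like protein that works with CCT on G protein beta subunits, went from 389 ± 18.5 to 37.8 ± 4.4 in BBB (−2.91; −2.84 in BCB), and Txndc9, another phosducin-like protein, fell too (−2.16 and −2.27). Txnl4a was at −3.28 and −3.21. Pdcl3 rose by 0.35 and 0.49, or −0.19 and −0.30 scaled to the hybridization controls. Pdcl2 did not pass the filter on low values, and Pdcd5 was not analysed here. Of the tubulin folding cofactors, which take tubulin after CCT, 4 of 6 fell in BBB and 3 in BCB, with Tbcb at −3.10 and −3.08, Tbcc at −2.28 and −1.96 and Tbca at −0.51 and −0.49. Tbcd passed in BBB (−0.34) and was at −0.29 in BCB, and Tbce was at 0.07 and 0.02. In BBB, Tbcd was not called with quantile normalization (−0.02) or with arrays centred on their medians (−0.24). Arl2, a small GTPase of this pathway, rose (1.39 and 1.21). Scaled to the hybridization controls, Arl2 was at 0.84 in BBB and at 0.42, not called, in BCB.

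Relatives of CCT were also mixed. The list had 5 of 7 tested genes lower and 1 higher in BBB, and 4 and 1 in BCB. Without Tcp11, whose protein is no chaperonin, 4 of 6 were lower in BBB and 3 of 6 in BCB. Cct6b, a second form of the zeta subunit known from testis, was dim, at 49.6 ± 16.2 in BBB and 6.9 ± 6.1 with amanitin (−1.52; −1.49 in BCB). The mitochondrial chaperonin Hspd1 rose from 1692 ± 116 to 2297 ± 268 (0.43; 0.48 in BCB), while Hspe1, its lid, fell (708 ± 53.4 and 359 ± 96.1 in BBB, −0.98; −1.15 in BCB). Hspd1 was at −0.11 in BBB and −0.31 in BCB scaled to the hybridization controls. Mkks, a chaperonin-like protein linked like Bbs10 and Bbs12 to Bardet-Biedl syndrome, fell (−1.59 and −1.60), as did Tcp11 (−0.47 and −0.91). With quantile normalization Tcp11 was at −0.16 in BBB, not called. Bbs10 fell in BBB (−0.66) and was at −0.42 in BCB, and Bbs12 was at 0.05 and 0.06. Tcp10b was not analysed here.

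RNA of proteins that CCT folds also moved both ways, which is common among all genes here (33.1% lower and 37.1% higher in BBB). Among 15 tested genes of actins and tubulins, 8 were lower and 6 higher in BBB (median −0.50), against 7 and 7 in BCB (median −0.17). Tubb4b went from 2796 ± 157 to 411 ± 51.9 in BBB (−2.73; −2.46 in BCB) and Tuba1a from 958 ± 152 to 82.0 ± 19.2 (−3.32; −3.19). Tubg2 rose from 1184 ± 165 to 3140 ± 155 (1.40; 1.37), Tubb2a by 0.77 and 1.05, and Actr3 by 0.70 and 0.72, or 0.15 and −0.07 scaled to the hybridization controls. The cytoplasmic actins, named after their values were seen, differed in direction: Actb rose (0.97 and 0.78) and Actg1 fell (−1.30 and −1.08), with Actb at −0.01 in BCB with the hybridization controls. Tubulin genes are close in sequence, and probe sets of one may bind RNA of another. Of 17 other clients 10 fell and 7 rose in each kind. Cdc20, the activator of the anaphase-promoting complex, fell from 3347 ± 257 to 724 ± 59.9 (−2.19; −2.22 in BCB), and Vhl, a ubiquitin ligase subunit, from 599 ± 107 to 22.8 ± 6.1 (−3.98; −4.51). Gnb1, a G protein beta subunit, rose from 1314 ± 39.0 to 3458 ± 132 (1.39 in BBB, 1.28 in BCB). Strn, a scaffold with WD40 repeats, rose by 0.96 and 0.83, or 0.41 and 0.04 scaled to the hybridization controls, the last not called. Of the regulators tested, Myc fell (−1.47 and −1.03) and Srf rose (1.47 in BBB, and also called in BCB). Hsf2 was dim, at 0.29 in BBB and 0.36 (called higher) in BCB, or −0.43 there scaled to the hybridization controls. It averaged 10.2 in untreated BCB, under the 40th percentile of those arrays (11.2 to 12.7), so its call is not read as a result. Hsf1 was not analysed here. No gene of these lists was called between BCB and BBB, untreated or with amanitin, or in the interaction.

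**Figure D5:**
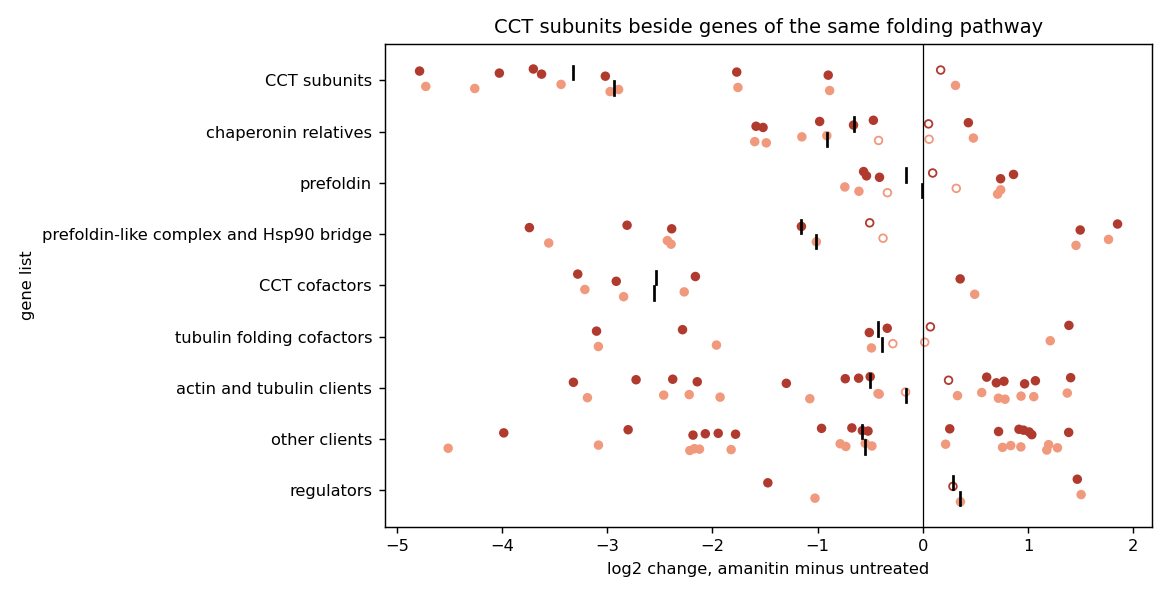
Log2 change with amanitin (horizontal axis) of the 8 CCT subunits and of the tested genes of 8 lists of the folding pathway, 1 point per gene, with BBB in dark and BCB in light red; filled points passed the test and vertical bars are medians. The CCT medians are −3.32 and −2.93, and the actin and tubulin genes spread to both sides of 0 with medians of −0.50 and −0.17.

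The genes whose values over the 16 arrays were most like the mean of the 8 subunits, each centred on its own mean, were Zfp1 (Pearson r 0.999), Utp23 (0.999), Cacybp (0.998), Rps3 (0.998) and Cwc22 (0.998). All 5 were low on treated and high on untreated arrays, for example Cacybp at 887 ± 96.5 and 805 ± 34.2 untreated and 51.3 ± 13.5 and 49.2 ± 1.0 with amanitin, in BBB and BCB. The arrays share their treatment groups, so a high r is common: 2451 genes (16.1%) reached 0.95. Each subunit's own r with the mean of the other 7 was 0.969 to 0.996, except that of Cct7, which was −0.73. These correlations describe the arrays at the scale of the deposited values, on which the direction of Cct7 depended, and carry no test.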

How the data were processed

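The deposited values were the authors' intensities, on a linear scale with 1 decimal and no value below 0; means per array were 207 to 248, and the software and scaling behind them were not given in the sources used here. Per the labels' protocols, a Picopure kit isolated the RNA and ENZO reagents added the biotin label. No pair of arrays was identical (0 pairs), and 0 sample columns were left unused. Of 45037 probe sets, 34945 had 1 symbol in the platform annotation, 932 several and 9160 none; 64 further ones are controls.

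Values were taken as log2(intensity + 16), and a probe set was tested where at least 4 of the 16 arrays had it at or above their own 40th percentile. All arrays entered 1 limma 3.58.1 fit (R 4.3.3) with a mean per group, an intensity trend and a Benjamini-Hochberg threshold of 0.05 over 31953 probe sets; it was tested on simulated data. The number of arrays limits the precision. All 8 members were named. Every gene of a list of 8 or fewer could be named, and of longer lists the 2 with the smallest adjusted p per direction. The members and lists were chosen with earlier results of these data known, and no result here is independent of that choice. Promoter windows and gene symbols came from RefSeq (GRCm38.p6). Alternatives were other scalings, pseudocounts of 1 and 64, other filters, the mean of probe sets, a replicate block, a fit of the compared groups alone, no trend, array weights and leaving out each array.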

Additional observations from a re-analysis of the deposited data

How the results depend on the processing

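The count of 7 subunits lower with amanitin was 7 or 8 under all 13 alternatives in both kinds, and 7 without each of the 16 arrays in turn. It became 8 when arrays were scaled to the hybridization or the poly-A controls, where Cct7 turned to −0.38 and −0.48 (hybridization, BBB and BCB) and to −1.55 and −1.42 (poly-A). Without 1 array in turn, the count of subunits called between BCB and BBB with amanitin was 0 to 1, and in the interaction 0 to 1; the 1 was Cct3, without treated BBB array 1. The mean of all tested probe sets brought the medians of the subunits nearer 0, to −2.24 and −2.22, since all tested probe sets of Cct3 and Cct4, dim ones included, then count alike. With a pseudocount of 1 and of 64 the medians in BBB were −3.39 and −2.98. The replicate number as a block left 7 subunits lower in both kinds, 1 higher in BCB, and 0 called in the other comparisons. The labels do not say that numbers pair the arrays. Over all tested probe sets, deviations of arrays with the same number correlated at −0.09 to 0.11, with 1 of 24 pairs over 0.1. Of the counts of list genes called lower, 449 stayed within 1.5 times and 15 rose by more, all of these with the control scalings or the mean of probe sets. The values of Cct4 and Cct3 differ by probe set.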

Other observations

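Set in the order of the subunits around the CCT ring, the log2 changes with amanitin in BBB embryos were −3.02 (Tcp1), −3.62 (Cct3), −4.78 (Cct6a), −3.70 (Cct8), 0.17 (Cct7), −1.77 (Cct5), −0.90 (Cct2) and −4.03 (Cct4). The 3 subunits that fell least or did not fall, Cct7, Cct5 and Cct2, are neighbours in the ring. This was seen after the values were known and was not tested.

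In untreated BBB embryos, array 1 had the highest value of 6 of the 8 subunits and array 3 the lowest of 5, with mean deviations of 0.12 and −0.11 on the log2 scale. Among the treated BBB arrays, arrays 1 and 3 were each highest for 3 subunits and arrays 2 and 4 each lowest for 3. The mean deviations of arrays 1 and 2 were 0.19 and −0.19, and they include Cct3, which read 769 and 271 there. These array differences were not tested.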
